A study of Mus musculus with 10 samples.

Results

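Each mouse autosome was divided into windows of 10 Mb by the start position of its genes, and the transcript level of every window was compared between prostate tumours grown from 3 cell lines. The members are the 253 windows on autosomes 1 to 19 that hold at least 5 genes that reached 1 CPM (a count scaled to a common library total) in at least 3 tumours, of 257 windows with an annotated gene. They hold 14807 of the 14809 autosomal genes that passed this filter, with 5 to 186 genes and a median of 47 genes per window. The 4 windows left out lie at the ends of chromosomes 10, 12, 13 and 18 and had 1, 0, 0 and 1 such genes, while the last window of chromosome 17 was kept with 5. Genes that are detected in a single line pass the filter too, so strong differences between lines are part of every window, and the median over genes is used because it does not depend on how large they are.

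The 10 tumours are orthografts, that is, tumours grown in the organ of origin: cells of a mouse prostate cancer line were placed in an anterior lobe of the prostate in males of the strain CD-1 Nude. These hosts have no working thymus but keep their own stroma, vessels and myeloid cells. P1, with 3 tumours, was derived from a mouse aged 14 months that lacked the Ctnnb1 allele of the other lines. CP1 (3 tumours) and CP2 (4 tumours) were derived from mice aged 6 and 8 months that carried Ctnnb1pc(ex3)Δ/+, a deletion of exon 3 of one Ctnnb1 copy that removes the sites through which beta-catenin is marked for destruction. The genotypes differ in more than this allele. P1 is the only line of its genotype here, CP1 and CP2 share theirs, and each line has its own donor age and was expanded in culture. Line, genotype and donor age therefore cannot be told apart. Nothing in the labels says that the libraries of a line came from separate hosts, and p-values therefore describe the spread of these libraries, which may be technical. All 3 groups share the host strain and the injection site.

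Genes that lie next to each other on a chromosome mostly differ in function and regulation, and a median over many neighbours does not depend on how far any 1 gene moves. How far programmes of transcription move these medians was not tested. Tumour cells and cultured lines often carry extra or missing chromosomes or chromosome pieces, and transcript levels of the genes on them tend to follow the number of DNA copies. Windows can also move together because they hold families of related genes, such as keratins, or because genes of a cell type lie in them. DNA was not measured in these samples, so the part of copy number in any shift was not tested. There was also no normal prostate sample, so a ratio between 2 lines does not say which of them departs from normal tissue.

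Libraries held 18800912 to 37180721 counts, with the lowest totals in CP2. The title of CP2 replicate 1 reads CP1, against 2 of its other labels, which read CP2. Its log2 CPM correlated at 0.982 on average with the other CP2 tumours and at 0.886 with CP1, as a description across genes. The labelled prostate epithelial origin was checked on Epcam, Cdh1, Krt8, Krt18 and Krt19, none of which was at 0 in any tumour. Epcam stood at 868 to 1290 CPM in P1, 15.6 to 31.1 CPM in CP1 and 8.36 to 15.9 CPM in CP2, and Krt19, the most abundant of the 5 in the CP lines, at 2500 to 5880 CPM in P1, 321 to 595 CPM in CP1 and 134 to 206 CPM in CP2. All 5 were lower in every CP tumour than in every P1 tumour and still present. Seminal vesicle and secretory prostate transcripts (12 of 12 listed genes found, none at 0 in all tumours) made up 15.05% (replicate 1), 6.86% (replicate 2) and 1.94% (replicate 3) of the P1 libraries and at most 0.169% of a CP library. Fibroblast transcripts (10 of 10 found) took 0.509% to 0.874% in P1, 1.51% to 2.37% in CP1 and 0.848% to 1.06% in CP2. Lymphocyte transcripts (9 of 9 found) took 0.00292% to 0.00475% in P1, 0.000313% to 0.000383% in CP1 and 0.0247% to 0.0358% in CP2, endothelial ones (8 of 8) at most 0.0373% of any tumour and macrophage ones (8 of 8) at most 0.106%. In bulk samples fewer cells of a type and less RNA per cell cannot be told apart, and the part of these mixtures in the window values was not tested.

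The level of a window in a tumour is the median over its genes of log2 CPM minus the gene's mean over the 3 lines, so that 0 means the average of the lines. The ratio between 2 lines is the median over genes of the difference in mean log2 CPM. A window is called shifted at a Benjamini-Hochberg adjusted p below 0.05 (limma over all 253 windows and 10 tumours) and a median ratio of at least 0.3 in size on the log2 scale. The p-value and SE belong to the difference in levels between lines, which can depart from the median ratio given beside them. For the whole of chromosome 12 in CP2 against P1 the difference was -0.0756 and the ratio -0.000167. The test takes its error from the spread between tumours and not from the scatter of genes inside a window. A window with few genes can therefore be called through a few of them. An exact permutation test of 3 against 3 tumours could not go below 0.1, and of 3 against 4 not below 0.0571.

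CP1 was shifted higher than P1 in 26 windows (10.3%) and lower in 6 (2.37%), on 13 chromosomes. CP2 was shifted higher than P1 in 48 windows (19%) and lower in 19 (7.51%), on 18 chromosomes. CP2 was shifted higher than CP1 in 38 windows (15%) and lower in 14 (5.53%), on 14 chromosomes. The tumours of the 2 lines did not overlap in 129, 173 and 165 of all 253 windows, and in 31 of 32, 65 of 67 and 52 of 52 of the shifted ones, which were chosen on the same levels. Without the size threshold 113, 167 and 142 windows passed the test, so many small differences exceeded the spread between tumours. The median over all autosomal genes was -0.0122, -0.000214 and -0.00134. With raw library sizes in place of the trimmed mean of M-values (TMM) it moved by 0.0835, 0.174 and 0.0888, and the higher and lower windows then numbered 89 and 4 in CP2 against P1 and 55 and 11 in CP2 against CP1. With every tumour centred on its median autosomal gene they were 63 and 11 in CP2 against P1. Of the shifted windows 12, 16 and 26 lay in a shifted chromosome or a run of at least 3, and 20, 51 and 26 lay outside. Ratios of adjacent windows correlated at r = 0.277 for CP1 against P1, 0.290 for CP2 against P1 and 0.604 for CP2 against CP1, over 234 adjacent pairs, which share libraries and are given as a description. The count of windows lower in CP1 than in P1 was the least stable of these: it was 16 without P1 replicate 1, 10 without P1 replicate 3 and 13 without CP1 replicate 2.

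**Figure D1:**
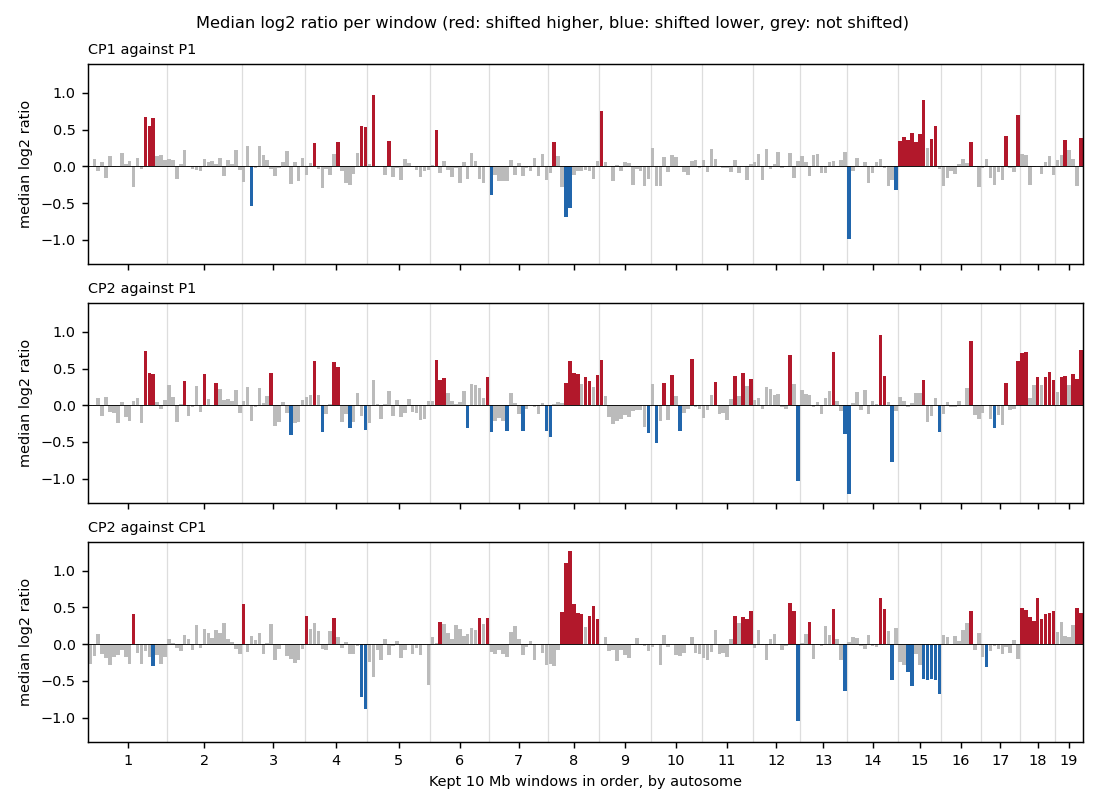
Median log2 ratio (y axis) of each of the 253 kept windows in chromosome order (x axis), with 1 panel per comparison; red and blue bars are windows shifted higher and lower. Long runs of red or blue bars stand on chromosomes 15, 18 and 8, and single windows reach -1.05 on chromosome 12 and 1.26 on chromosome 8.

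Single genes were tested with edgeR over all genes that passed the filter. Among the autosomal ones, 23.9% were called higher and 24.3% lower in CP1 than in P1, 29.7% and 30.4% in CP2 than in P1, and 23% and 23.8% in CP2 than in CP1. With raw library sizes the genes called higher and lower in CP2 against P1 numbered 5569 and 3406 of all those tested, where TMM gave 4405 and 4500. The shares under TMM are the background against which the genes of each region are read.

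Chromosome 15 was the only autosome shifted as a whole in CP1 against P1, by the rule that at least 75% of a chromosome's windows are shifted in 1 direction. The chromosome level, taken over 607 genes, was -0.13, -0.11 and -0.04 in the P1 tumours, 0.29, 0.24 and 0.28 in CP1 and -0.16, -0.18, -0.21 and -0.16 in CP2. All CP1 tumours stood above all tumours of both other lines, and the lowest CP1 tumour was 0.24. CP1 was 1.29-fold higher than P1 over the chromosome (median log2 ratio 0.36, SE of the fitted difference 0.025, limma adjusted p = 2.42e-07 over 19 autosomes). CP2 was at 0.731 of the CP1 level (log2 ratio -0.45, SE 0.023, limma adjusted p = 1.33e-08) and differed from P1 by -0.10 (limma adjusted p = 0.00659). With raw library sizes this last value was 0.07, but relative to the median of all autosomal genes it was -0.10 under both scalings.

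The rise ran along nearly the whole of chromosome 15. In 9 of 11 windows CP1 was shifted higher than P1, with ratios from 0.33 (40 to 50 Mb) to 0.90 (60 to 70 Mb). The exceptions were the window from 70 to 80 Mb, at 0.24, and the last window, from 100 to 110 Mb, at -0.04. That last window holds the type II keratin genes, among them Krt8, a keratin of simple epithelia. Krt8 stood at 4590 ± 1830 CPM in P1, 160 ± 98.7 in CP1 and 51.1 ± 44.3 in CP2 (here and below mean ± SD over 3, 3 and 4 tumours), and fell by 4.84 on the log2 scale in CP1 against P1 (edgeR adjusted p = 0.000787). Of the 607 genes, 68.4% had a higher mean in CP1 than in P1, 44.3% were called higher against the 23.9% of all autosomal genes, and 16.1% were called lower against 24.3%. The number of shifted windows was 7 of 11, below the rule for a whole chromosome, without P1 replicate 1, without P1 replicate 3 or without CP1 replicate 3, while the chromosome's ratio stayed between 0.35 and 0.37 without any 1 tumour. It was 0.21 with 4 of 11 windows shifted as a mean over genes, and 0.21 with 3 of 11 with no filter on low counts.

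The genes of chromosome 15 did not all follow the chromosome. Over genes with a mean CPM above the median of all autosomal genes the ratio of CP1 to P1 was 0.48, and over those below it was 0.10. Both were the highest of any autosome, and the next were 0.22 and 0.003, on chromosome 1. Of 19 genes on chromosome 15 that encode subunits of broadly expressed complexes (ribosome, proteasome, respiratory chain and others), 18 had a higher mean in CP1, with a median of 0.39, while the 389 such genes on all autosomes had a median of -0.08 and 39.3% of them were higher. With these genes alone the chromosome 15 ratio did not pass the test (limma adjusted p = 0.0786). The ribosomal gene Rpl8 had 843, 968 and 1290 CPM in P1, 1320, 1300 and 1400 in CP1 and 773, 772, 734 and 765 in CP2. CP1 stood highest in all its tumours and CP2 lowest. Rpl8 was not called in CP1 against P1 (edgeR adjusted p = 0.0625) and was called lower in CP2 than in CP1 (log2 fold change -0.82, SE 0.14, adjusted p = 0.0011). The translation initiation factor gene Eif4b showed the same order of means, 491 ± 19.4 in P1, 590 ± 68.1 in CP1 and 361 ± 42.0 CPM in CP2, and was called in CP2 against CP1 (log2 fold change -0.71, edgeR adjusted p = 0.000898) but not in CP1 against P1 (adjusted p = 0.106).

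The gene that rose most on chromosome 15 in CP1 against P1 was Upk3a, a uroplakin of the bladder lining, at 0.031, 0.0629 and 0.257 CPM in P1, 8.17, 247 and 99.6 in CP1 and at most 1.41 in CP2. Its CP1 tumours differed by far more than the chromosome did. The urothelial list (7 of 7 found, none at 0 in all tumours) took 0.00604%, 0.138% and 0.0551% of counts in CP1 replicates 1, 2 and 3. The gene that fell most was Lgals2, a galectin, with a mean of 279 ± 103 CPM in P1 and 0.531 ± 0.13 in CP1. Myc, the proto-oncogene (GRCm38, chr15:61985391-61990374), lies in the window from 60 to 70 Mb, which had the highest ratio of the chromosome, and moved against it. Myc had 87.1, 87.4 and 117 CPM in P1, 65.0, 57.5 and 74.7 in CP1 and 42.1, 44.9, 42.6 and 40.1 in CP2. It was lower in CP1 than in P1 (log2 fold change -0.56, SE 0.13, edgeR adjusted p = 0.00621) and lower in CP2 than in CP1 (-0.63, SE 0.12, adjusted p = 0.00266), with no overlap between lines.

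**Figure D2:**
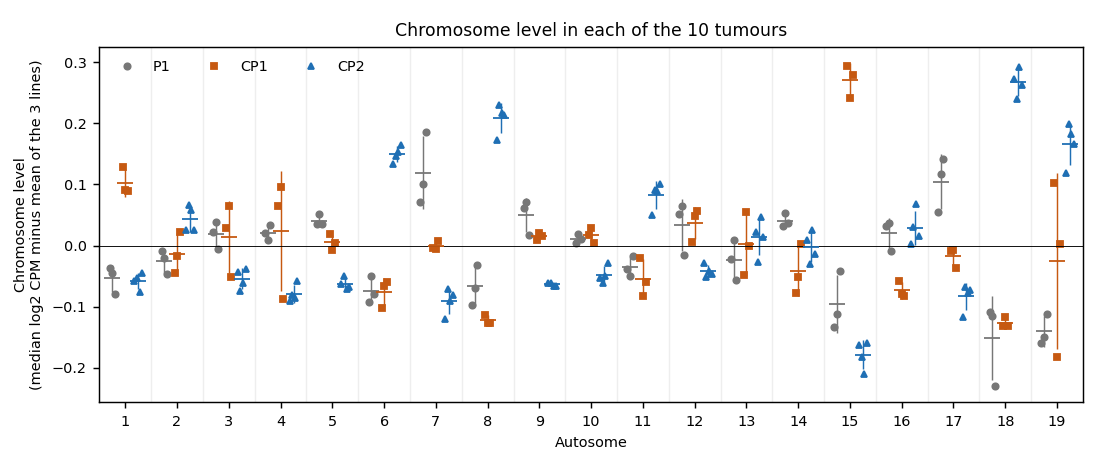
Level of each autosome (y axis, log2, relative to the mean of the 3 lines) in each tumour, with horizontal ticks and bars for the mean ± SD of a line (n = 3, 3 and 4). CP1 stands apart on chromosome 15 (0.24 to 0.29) and CP2 on chromosomes 18, 8 and 6, while the 3 CP1 tumours spread widely on chromosomes 19 and 4.

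Chromosome 18 was shifted as a whole in CP2 against CP1. Its level over 382 genes was 0.27, 0.24, 0.29 and 0.26 in the CP2 tumours, -0.13, -0.12 and -0.13 in CP1 and -0.11, -0.11 and -0.23 in P1. CP2 stood above both other lines without overlap, and CP1 and P1 overlapped each other. CP2 was 1.29-fold higher than CP1 (log2 ratio 0.37, SE 0.027, limma adjusted p = 7.7e-08) and 1.29-fold higher than P1 (0.36, SE 0.027, adjusted p = 1.24e-07), while CP1 and P1 differed by 0.00 (limma adjusted p = 0.622). All 9 windows were shifted higher in CP2 than in CP1, with ratios from 0.32 (30 to 40 Mb) to 0.63 (40 to 50 Mb), and at least 7 of 9 were shifted without any 1 tumour. With no filter on low counts the chromosome's ratio was 0.17 against CP1 and 0.16 against P1, both still past the limma test, and none of the 9 windows was shifted against CP1. Against P1, 6 of 9 windows were shifted and all 9 were above 0, so that the rule gave a segment from 60 to 90 Mb (0.41, 128 genes) where the rest of the chromosome stood at 0.34. Without P1 replicate 1, P1 replicate 3 or CP2 replicate 1, or as a mean over genes, only 2 of its 3 windows were shifted, and with no filter on low counts 1.

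Of the chromosome 18 genes, 73.0% had a higher mean in CP2 than in CP1, and 49.7% were called higher against 23% of all autosomal genes. The ratio to CP1 was 0.36 in genes with a mean CPM above the median of all autosomal genes and 0.41 in those below, and the ratio to P1 was 0.44 and 0.16. In genes below that median, only chromosome 19 had a higher ratio to P1 (0.20), and most autosomes were below 0. Genes of the broadly expressed complexes differed less here: 5 of 7 genes had a higher mean in CP2 than in CP1 (median 0.15), and 2 of 7 in CP2 than in P1 (median -0.13, against a median of -0.25 for the 389 on all autosomes, of which 27.5% were higher). With those 7 genes alone the sign of CP2 against P1 turned and neither comparison passed the test (limma adjusted p = 0.466 and 0.518). Atp5a1, a subunit of ATP synthase, stood at 1000 ± 193 CPM in P1, 809 ± 45.6 in CP1 and 855 ± 43.6 in CP2, and Rps14, a ribosomal gene, at 609 ± 101, 498 ± 12.6 and 553 ± 42.9; neither was called in CP2 against CP1 or P1.

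Large single-gene differences lay within the same chromosome in both directions. Apcdd1, which encodes an inhibitor of Wnt signalling, had 29.1, 8.68 and 11.6 CPM in P1, 728, 1040 and 574 in CP1 and 4000, 3170, 3280 and 3500 in CP2, and rose most in the segment against P1 (log2 fold change 7.73, SE 0.53, edgeR adjusted p = 2.45e-06). Cidea, a lipid droplet protein gene, had the largest fall there, with 27.1 ± 13.1 CPM in P1 and 0.0967 ± 0.0796 in CP2. Against CP1 the largest rise was Ankrd29, from 2.32 ± 1.28 to 78.3 ± 22.9 CPM, and the largest fall was that of Lipg, endothelial lipase, from 32.3 ± 14.7 to 0.984 ± 0.179 CPM. These differences are many times the 1.29-fold of the chromosome.

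Chromosome 8 was high in CP2 over most of its length but not at its start. The level over 811 genes was 0.17, 0.23, 0.22 and 0.21 in CP2, -0.11, -0.13 and -0.13 in CP1 and -0.10, -0.07 and -0.03 in P1, with CP2 above every tumour of the other lines. CP2 was 1.28-fold higher than CP1 (log2 ratio 0.36, SE 0.019, limma adjusted p = 1.76e-08) and 1.21-fold higher than P1 (0.28, adjusted p = 1.31e-07). With the mean over genes in place of the median, CP2 against P1 was 0.04 (limma adjusted p = 0.217), and with no filter on low counts the ratios were 0.17 against CP1 and 0.14 against P1.

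Along chromosome 8 the first 3 windows, up to 30 Mb, were below 0 in CP2 against CP1 (-0.26, -0.30 and -0.07), and from 30 Mb on every window was above 0. The shifted runs were 30 to 90 Mb (0.50 over 352 genes) and 100 to 130 Mb (0.40 over 258 genes), with the window between them at 0.24. In windows of 5 Mb the ratio changed from 0.02 (25 to 30 Mb) to 0.44 (30 to 35 Mb). Of the 352 genes of the first run 54.5% were called higher and 8.52% lower in CP2 than in CP1, against 23% and 23.8% of all autosomal genes. In the run of 258 genes 49.6% were called higher. With no filter on low counts 2 of 6 and 1 of 3 windows of the 2 runs were shifted, and as a mean over genes 6 of 6 and 0 of 3. Against P1 the rule gave a segment of 4 windows from 40 to 80 Mb (0.41 over 227 genes), where the rest of the chromosome stood at 0.22. There 52.9% of genes were called higher against 29.7% of all autosomal genes. Its ratio was 0.23 at the lowest over the alternative settings.

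Inside the run from 30 to 90 Mb 2 windows had the largest ratios, with CP1 lower and CP2 higher than over the whole run (-0.19 in each CP1 tumour and 0.27 to 0.32 in CP2). From 40 to 50 Mb the window level was 0.16, 0.16 and 0.06 in P1, -0.56, -0.59 and -0.56 in CP1 and 0.44, 0.50, 0.55 and 0.51 in CP2. The 3 lines were separated, with CP1 lowest and CP2 highest. CP1 was at 0.62 of P1 (log2 ratio -0.69, SE 0.039, limma adjusted p = 5.11e-07), and CP2 2.15-fold higher than CP1 (1.11, SE 0.037, adjusted p = 1.27e-09). Of the 42 genes, 26 were called lower and 1 higher in CP1 than in P1 (24.3% and 23.9% of all autosomal genes), and 33 were called higher in CP2 than in CP1 (23%). The next window, from 50 to 60 Mb with 17 genes, had ratios of -0.56 in CP1 against P1 and 1.26 in CP2 against CP1, the highest of that comparison. Its value in CP1 against P1 was less stable: -0.13 without CP1 replicate 1, -0.35 without P1 replicate 1, -0.37 as a mean over genes (limma adjusted p = 0.0772) and 0.0035 with no filter on low counts (adjusted p = 0.278).

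Genes of these 2 windows with the highest mean CPM, chosen after their values were seen, are given as examples. Slc25a4, the mitochondrial ADP/ATP carrier, had 221, 196 and 255 CPM in P1, 202, 204 and 216 in CP1 and 490, 499, 516 and 494 in CP2. CP2 was higher by 1.27 (log2, edgeR adjusted p = 1.58e-05), and CP1 did not pass the test against P1 (adjusted p = 0.404). Fat1, a large cadherin, stood at 293 ± 44.8 CPM in P1, 172 ± 23.7 in CP1 and 278 ± 17 in CP2, so CP1 was lowest and CP2 was not above P1. Spcs3, a signal peptidase subunit, stood at 142 ± 19.1, 96.1 ± 8.6 and 226 ± 15.3 CPM, and Hmgb2, a chromatin protein of dividing cells, at 56.4 ± 8.32, 35.2 ± 5.56 and 103 ± 10.8. Both were called lower in CP1 than in P1 and higher in CP2 than in CP1 (edgeR adjusted p from 3.2e-05 to 0.00398).

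Other genes named in the chromosome 8 runs, or in the segment against P1, point both ways. The retromer gene Vps35 rose from 221 ± 20.5 CPM in CP1 to 315 ± 10.1 in CP2 (log2 fold change 0.51, edgeR adjusted p = 0.00608), and the splicing factor gene Sf3b3 from 199 ± 4.09 to 323 ± 14.1 (0.70, adjusted p = 0.00013). The ribosomal gene Rpl13 and the respiratory chain gene Ndufa13 did not pass the test in the comparisons of their runs, at 407 ± 17.2 and 408 ± 31.6 CPM (Rpl13, CP1 and CP2) and 95.7 ± 28.3 and 102 ± 3.09 (Ndufa13, P1 and CP2). Hhip, which binds and inhibits Hedgehog ligands, rose most, from 0.996 ± 0.69 CPM in CP1 to 42.3 ± 13.5 in CP2. Stox2 fell from 7.3 ± 3.27 to 1.46 ± 0.578. BC030870, which fell most in the segment against P1, was at 21.8 ± 6.68 CPM in P1 and near 0 in both CP lines (at most 0.177 CPM). In the run from 100 to 130 Mb, Nqo1, a quinone reductase, had 2.12, 41.5 and 29.4 CPM in CP1 and 1.66 ± 0.261 in CP2, and Cdh15, a cadherin, had 17.9, 2.64 and 2.2 in CP1 and 18.9, 44.9, 47.0 and 47.6 in CP2. The call of Cdh15 (log2 fold change 2.38, edgeR adjusted p = 0.0332) was lost without CP1 replicate 2 or 3 or CP2 replicate 2, 3 or 4, with adjusted p from 0.0633 to 0.0974.

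**Figure D3:**
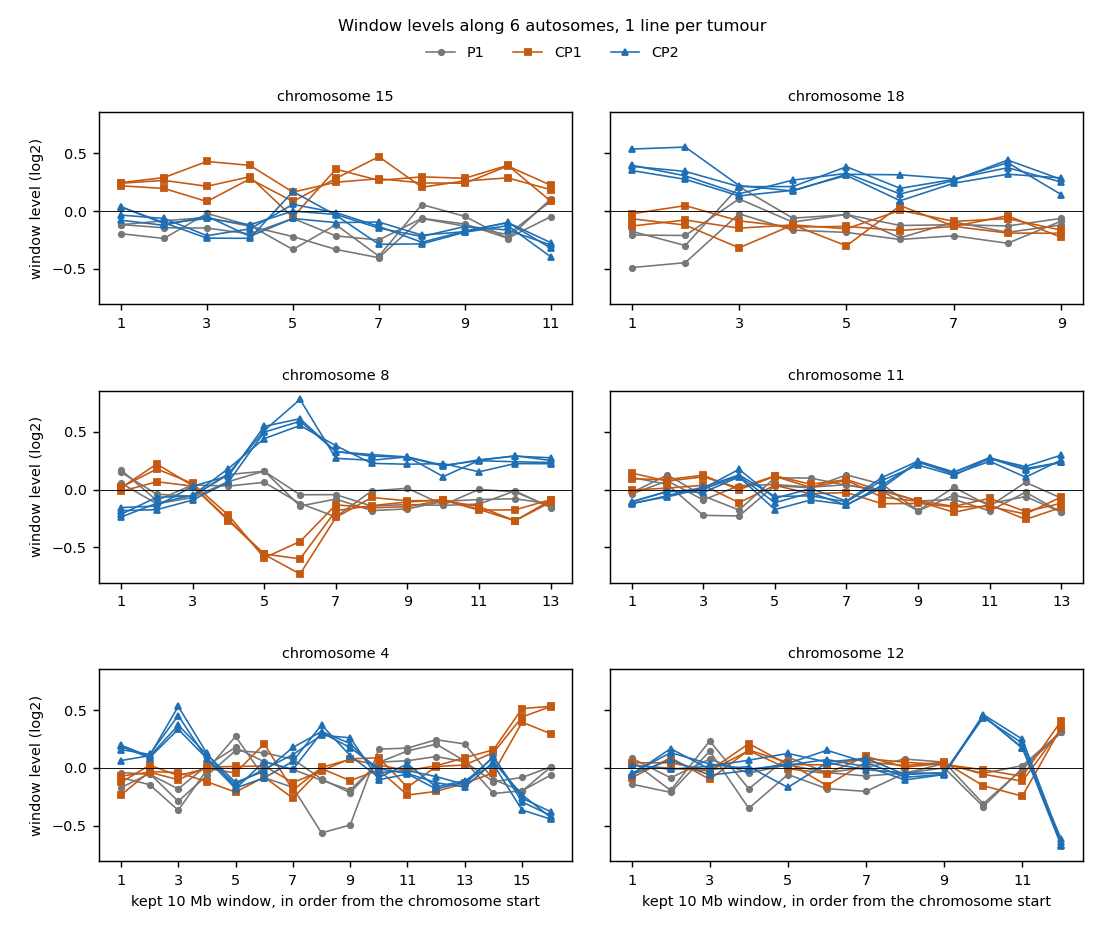
Window level (y axis, log2, relative to the mean of the 3 lines) against the order of kept windows from the chromosome start (x axis) on 6 autosomes, with 1 line per tumour. CP1 lies above the others along most of chromosome 15 but overlaps P1 in its last window. CP2 lies above the others along chromosome 18 and from the fourth window of chromosome 8. CP1 stands above CP2 in the last 2 windows of chromosome 4 and in the last window of chromosome 12.

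Chromosome 11 was split. Its level over 1270 genes was 0.05, 0.09, 0.09 and 0.10 in CP2, -0.02, -0.08 and -0.06 in CP1 and -0.04, -0.05 and -0.02 in P1, and CP2 was 0.14 above CP1 (SE 0.019, limma adjusted p = 4.92e-05). In CP2 against CP1 the windows from 0 to 70 Mb lay between -0.21 and 0.19, and those from 80 Mb to the end between 0.29 and 0.45. The rule gave a segment from 100 to 130 Mb (0.36 over 364 genes), with a level of 0.21 to 0.26 in the CP2 tumours, -0.11 to -0.19 in CP1 and -0.05 to -0.11 in P1. With no filter on low counts its ratio was 0.19 and none of its windows was shifted. The window from 80 to 90 Mb was shifted as well (0.39), and the one between them, at 0.29, missed the size threshold. In windows of 5 Mb the ratio went from -0.07 (70 to 75 Mb) to 0.33 (75 to 80 Mb).

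Of the 364 genes of this segment 49.7% were called higher in CP2 than in CP1 against 23% of all autosomal genes, and 10 of its 11 broadly expressed complex genes had a higher mean, with a median of 0.14. The 389 such genes on all autosomes had a median of -0.21 in that comparison, and 27.5% of them were higher. Rpl27 and Psmc5, a ribosomal and a proteasome gene, did not pass the test (152 ± 4.26 and 165 ± 8.24 CPM, and 173 ± 12.1 and 160 ± 8.1, in CP1 and CP2). Axin2, an inhibitor and transcriptional target of Wnt signalling, lies in this segment. On GRCm38 it spans chr11:108920349-108950783. It had 32.1, 35.7 and 18.7 CPM in P1, 206, 222 and 216 in CP1 and 644, 631, 565 and 584 in CP2 (log2 fold change of CP2 against CP1 1.49, SE 0.19, edgeR adjusted p = 0.000229), so it differed between CP1 and P1 as well (2.90, adjusted p = 5.52e-06), where its window stood at 0.01. The type I keratin cluster lies there too: Krt42 rose from 0.0851 ± 0.0548 CPM in CP1 to 126 ± 23.6 in CP2, and Krt15 had 32.3, 534 and 318 CPM in CP1 and 4.2 ± 1.89 in CP2.

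Chromosomes 6 and 19 were higher in CP2 than in both other lines as well, by smaller median ratios than chromosome 18. On chromosome 6 (830 genes) the level was 0.13, 0.15, 0.15 and 0.16 in CP2, -0.10, -0.07 and -0.06 in CP1 and -0.09, -0.05 and -0.08 in P1, with no overlap of CP2 with either line. The ratio was 0.22 against P1 (SE 0.017, limma adjusted p = 1.98e-07) and 0.23 against CP1 (adjusted p = 1.35e-07). All 15 windows were above 0 in CP2 against CP1, but only 3 reached the size of 0.3. As a mean over genes the ratio to P1 was 0.06 (limma adjusted p = 0.131), and over the 16 broadly expressed complex genes it was -0.08 (adjusted p = 0.723). The 389 such genes on all autosomes had a median of -0.25 in CP2 against P1.

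Against P1 the rule gave a segment of chromosome 6 from 10 to 40 Mb (0.41 over 129 genes, 48.8% called higher against 29.7%), where the rest of the chromosome stood at 0.20. Its first window was higher in CP1 than in P1 too (0.49), and 1 of its 3 windows was shifted without P1 replicate 3 or as a mean over genes, 2 without CP2 replicate 4, and none with no filter on low counts (ratio 0.07). Wnt16, a Wnt ligand, rose most, from at most 0.157 CPM in P1 and CP1 to 27.3, 28.3, 33.5 and 30.7 CPM in CP2. Cftr, a chloride channel of secretory epithelia, fell most, from 72.8 ± 18.8 CPM in P1 to 1.65 ± 0.425 in CP2. Ndufa4 and Ndufb2, 2 respiratory chain genes, did not pass the test (141 ± 27.8 and 120 ± 6.4, and 38.6 ± 7.43 and 39 ± 3.89 CPM, in P1 and CP2).

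On chromosome 19 (511 genes) the level was -0.16, -0.15 and -0.11 in P1, 0.10, -0.18 and 0.00 in CP1 and 0.12, 0.20, 0.18 and 0.17 in CP2. CP2 was above both lines without overlap, at 0.33 from P1 (SE 0.051, limma adjusted p = 0.000169) and 0.21 from CP1 (adjusted p = 0.00469), and 0.12 from CP1 without CP1 replicate 2. All 7 windows were above 0 in CP2 against P1 and 5 were shifted, 3 of them in a run from 40 to 70 Mb (0.44 over 159 genes, 51.6% called higher against 29.7%), of which 2 remained shifted without P1 replicate 3 and 1 as a mean over genes or with no filter on low counts (ratios 0.23 and 0.16). The initiation factor gene Eif3a rose there from 358 ± 26.3 CPM in P1 to 463 ± 7 in CP2 (log2 fold change 0.37, edgeR adjusted p = 0.00989), and Ndufb8, of the respiratory chain, did not pass the test (98.2 ± 16.2 and 114 ± 5.66 CPM). Golga7b rose from 1.24 ± 0.578 to 69.6 ± 13.1 CPM, and the semaphorin gene Sema4g fell from 222 ± 65.5 to 10.3 ± 0.867 CPM.

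The tumours of a line were close on most chromosomes, with the widest ranges on chromosomes 19 and 4 of CP1. The range of the chromosome level within a line had a median over autosomes of 0.046 in P1, 0.042 in CP1 and 0.048 in CP2. It was 0.28 on chromosome 19 and 0.18 on chromosome 4 in CP1, against 0.047 and 0.025 in P1 and 0.079 and 0.034 in CP2. On chromosome 19 CP1 replicate 1 was the highest and CP1 replicate 2 the lowest of the CP1 tumours in all 7 windows, while over all 253 windows these tumours held those places in 34.4% and 30.8%. CP1 replicate 3 was the lowest in 13 of 16 windows on chromosome 4 and in 15 of 16 on chromosome 3 (range 0.12), against 30.8% of all windows. On chromosome 18 P1 replicate 3 was the lowest P1 tumour in 8 of 9 windows (range 0.12), against 52.2% of all windows. These chromosomes were picked out by their values, so these counts are a description without a test. The CP1 tumours also differed in the urothelial share given above and in fibroblast transcripts (2.37%, 1.79% and 1.51% of counts), and the part of these in the spread was not tested.

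**Figure D4:**
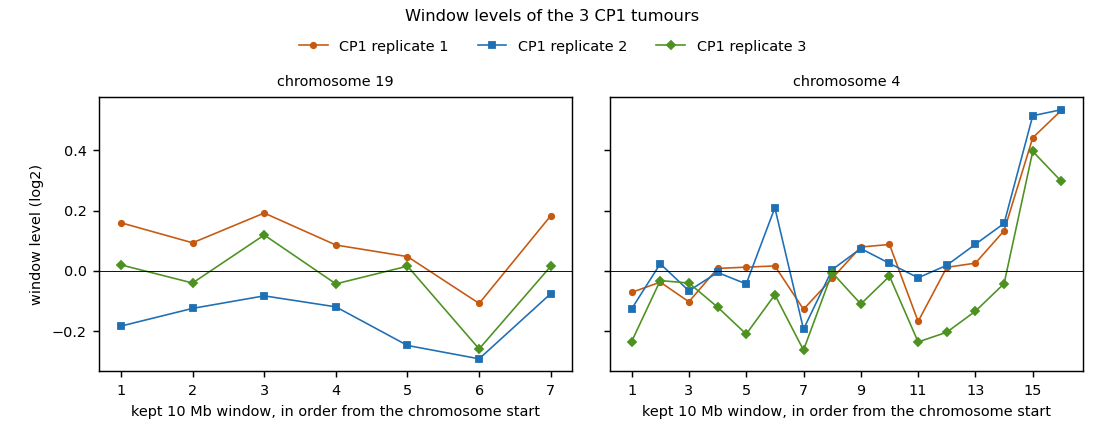
Window level (y axis, log2) of the 3 CP1 tumours against the order of kept windows (x axis) on chromosomes 19 and 4. The curves of chromosome 19 stay in 1 order over all 7 windows, and on chromosome 4 replicate 3 is lowest in 13 of 16 windows while all 3 tumours rise in the last 2.

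A stretch of chromosome 1 from 140 to 170 Mb was higher in both CP lines than in P1. Its level over 143 genes was -0.22, -0.35 and -0.59 in P1, 0.30, 0.31 and 0.28 in CP1 and 0.16, 0.09, 0.07 and 0.10 in CP2. The P1 tumours were below all others but spread over 0.37, more than the CP1 and CP2 tumours did, and the highest of them, replicate 1, had the most seminal vesicle transcripts, whose part was not tested. The ratio was 0.63 in CP1 and 0.50 in CP2 against the same P1 tumours, and the rest of the chromosome stood at 0.06 and -0.09. Called higher were 51.0% and 50.3% of the genes, against 23.9% and 29.7% of all autosomal genes. Without P1 replicate 3 the ratios were 0.53 and 0.36, and 3 and 2 of the 3 windows were shifted. With no filter on low counts they were 0.17 and 0.13, and 1 and 0 were shifted.

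In this stretch Brinp3 had 3.63, 1.92 and 1.47 CPM in P1, 701, 509 and 470 in CP1 and 146, 105, 122 and 126 in CP2, the largest rise in both comparisons (log2 fold change 7.89, SE 0.37, and 5.73, SE 0.33; edgeR adjusted p = 7.4e-07 and 1.05e-06). F5, coagulation factor V, fell most in CP1 (21.9 ± 5.94 CPM in P1, 1.06 ± 0.0963 in CP1), and Gpa33, an epithelial surface antigen, in CP2 (104 ± 23.3 CPM in P1, 0.522 ± 0.397 in CP2). Mrps14, of the mitochondrial ribosome, was higher in CP1 (48.2 ± 3.63 against 34.2 ± 3.29 CPM, log2 fold change 0.50, edgeR adjusted p = 0.00234) and level with P1 in CP2 (34.1 ± 1.83).

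The last 20 Mb of chromosome 4 separated the CP lines in a block that the rule of 3 windows does not name, because the chromosome ends after 2. From 140 to 150 Mb the level was -0.08, -0.20 and -0.20 in P1, 0.44, 0.51 and 0.40 in CP1 and -0.23, -0.26, -0.37 and -0.29 in CP2, over 93 genes. From 150 to 160 Mb it was 0.01, -0.06 and 0.01 in P1, 0.53, 0.53 and 0.30 in CP1 and -0.43, -0.38, -0.44 and -0.41 in CP2, over 86 genes. In both windows CP1 stood above P1 and P1 above CP2. CP1 was 1.46-fold and 1.45-fold higher than P1 (limma adjusted p = 6.16e-06 and 8.58e-05), and CP2 at 0.609 and 0.541 of CP1 (adjusted p = 3.08e-07 for both). CP2 against P1 was -0.14 in the first and -0.34 in the last window, and only the last was shifted. Windows of 5 Mb were shifted in CP2 against CP1 from 140 Mb to the end, at -0.67, -0.79, -0.91 and -0.86, and stood at -0.13 just before.

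Of the genes in these 2 windows 57 of 93 and 60 of 86 were called lower in CP2 than in CP1 (background 23.8%), and 54 and 47 were called higher in CP1 than in P1 (background 23.9%). Among the 2 genes with the highest mean CPM in each window, chosen after their values were seen, H6pd (chr4:149979475-150009023), which makes NADPH in the endoplasmic reticulum, had 271, 194 and 194 CPM in P1, 499, 449 and 446 in CP1 and 73.1, 57.1, 50.2 and 57.9 in CP2. Eno1, a glycolytic enzyme, stood at 281 ± 57.1, 581 ± 61.8 and 242 ± 21.2 CPM, and Gnb1, a G protein subunit, at 383 ± 36.3, 584 ± 51.3 and 319 ± 12.1 CPM in P1, CP1 and CP2. All 3 were called in CP1 against P1 and in CP2 against CP1 (edgeR adjusted p from 2.97e-06 to 0.000946). Rcc2, the other of these genes, had a higher mean in CP2 (273 ± 19.2 CPM in CP1 and 318 ± 12.9 in CP2, edgeR adjusted p = 0.106).

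The last kept window of chromosome 12, from 110 to 120 Mb, was the lowest of CP2 against CP1. Its level over 72 genes was -0.62, -0.68, -0.64 and -0.66 in CP2, 0.31, 0.32 and 0.31 in P1 and 0.35, 0.34 and 0.41 in CP1. The 4 CP2 tumours lay within 0.06 of each other, and P1 and CP1 were close together. CP2 was at 0.491 of P1 (log2 ratio -1.03, SE 0.030, limma adjusted p = 9.58e-10) and at 0.484 of CP1 (-1.05, SE 0.030, adjusted p = 5.18e-10). Of the 72 genes, 55 were called lower and 2 higher against P1, and 56 lower and 1 higher against CP1, where the background was 30.4% and 23.8% lower. Of these genes 75% had a ratio to CP1 below -0.69.

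The step on chromosome 12 was abrupt and ran opposite to its neighbours. The 2 windows before it, from 90 to 110 Mb, were higher in CP2 than in CP1, at 0.56 (18 genes) and 0.45 (67 genes), and both were shifted. The windows from 0 to 90 Mb lay between -0.22 and 0.19. In windows of 5 Mb the ratio was 0.27 from 105 to 110 Mb, -1.05 from 110 to 115 Mb (57 genes), and the 15 genes from 115 to 120 Mb were shifted lower as well.

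The 4 genes of the last chromosome 12 window with the highest mean CPM, chosen after their values were seen, were all called lower in CP2 than in both other lines. Akt1 (chr12:112653821-112674884), a kinase of growth factor signalling, had 406, 368 and 406 CPM in P1, 443, 435 and 404 in CP1 and 216, 203, 204 and 203 in CP2 (log2 fold change against P1 -0.93 and against CP1 -1.05, edgeR adjusted p = 7.95e-06 and 1.17e-05). Eif5, a translation initiation factor, had 362, 411 and 368 CPM in P1, 324, 298 and 359 in CP1 and 167, 158, 165 and 165 in CP2. Dync1h1, the dynein motor heavy chain, stood at 373 ± 33.8, 410 ± 36.8 and 237 ± 14.8 CPM. Crip1, a small LIM domain protein, stood at 733 ± 277, 244 ± 35.4 and 33.4 ± 9.66 CPM, and was thus lower in CP1 than in P1 as well. Against CP1, Akt1 and Eif5 differed by amounts near the window's median, Dync1h1 by less (-0.79) and Crip1 by far more (-2.87).

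**Figure D5:**
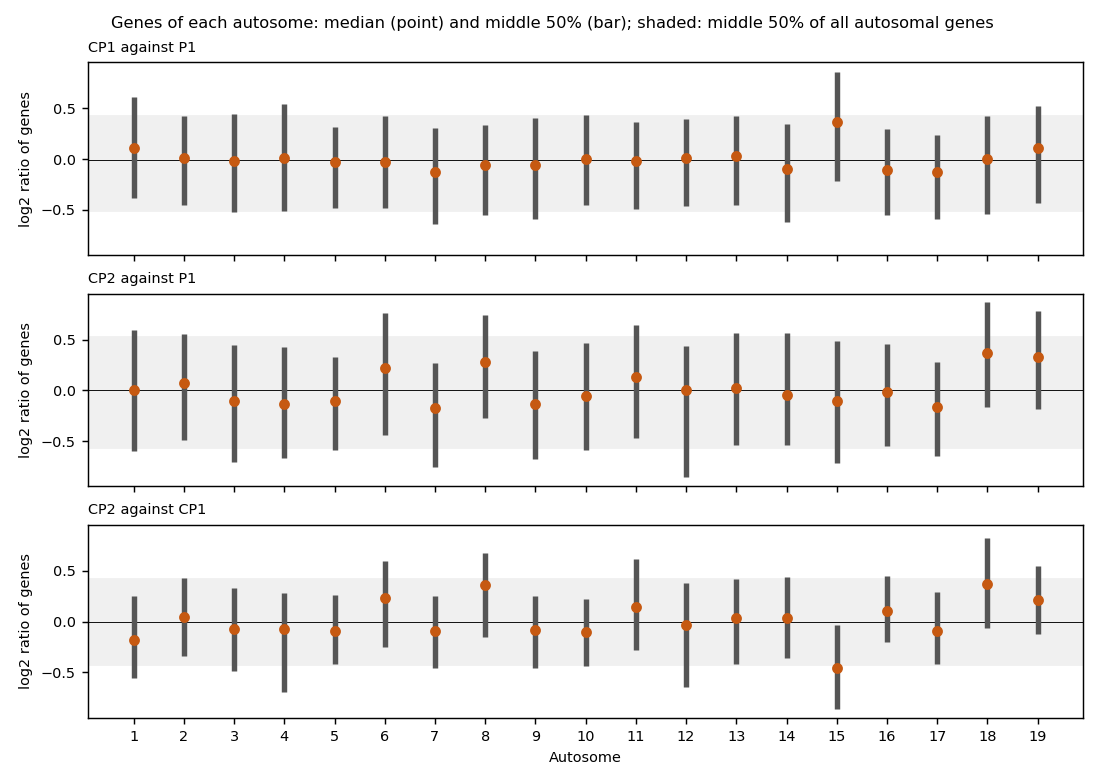
Log2 ratio of single genes (y axis) by autosome (x axis): the point is the median and the bar spans the middle 50% of genes, and the shaded band is the middle 50% of all autosomal genes. The bars overlap the band on every chromosome, and those of chromosome 15 in CP1 against P1 (0.36) and CP2 against CP1 (-0.45) and of chromosome 18 in CP2 (0.36 and 0.37) are displaced most.

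On chromosome 15, 7 of 11 windows were shifted lower in CP2 than in CP1 and all 11 were below 0. The rule gave a run of 5 windows from 60 to 110 Mb (-0.49 over 437 genes), with the rest of the chromosome at -0.37. With no filter on low counts 3 of the 5 were shifted (-0.36). Of these genes 56.1% were called lower against 23.8% of all autosomal genes and 7.55% higher against 23%, and none of its 9 broadly expressed complex genes had a higher mean in CP2 (median -0.66, where the median over all 389 was -0.21). The 5 windows lay between -0.47 and -0.67, and the largest was the keratin window at the end. There Krt90 went against the run, from 0.0468 ± 0.0154 CPM in CP1 to 16.8 ± 6.67 in CP2. Gsdmc3, a gasdermin gene that has close copies in the same cluster between which reads could be divided, had 1.38, 40.4 and 35.5 CPM in CP1 and 0 counts in all 4 CP2 tumours.

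Several of the most extreme windows had few genes. The lowest window against P1 in both CP lines was the first of chromosome 14 (13 genes, -0.98 in CP1 and -1.20 in CP2, limma adjusted p = 2.79e-05 and 1.63e-05). The highest in CP1 against P1 was the window of chromosome 5 from 10 to 20 Mb (0.97 over 11 genes). Its levels overlapped between the lines, at -0.44, 0.22 and -0.73 in P1 and 0.35, 0.73 and 0.03 in CP1. The window passed the test in limma with an adjusted p of 0.0297. It holds a cluster of semaphorin genes that moved in both directions. Sema3a was at 3.84 ± 2 CPM in P1 and 417 ± 132 in CP1, and Sema3e at 49.8 ± 14.9 and 0.49 ± 0.302. In CP2 against P1 the highest was chromosome 14 from 80 to 90 Mb (0.96 over 6 genes), with a limma adjusted p of 0.000157. Shifted windows outside the runs had a median of 22.5, 37 and 35.5 genes in the 3 comparisons, and those that were not shifted 50, 49.5 and 49. Windows inside the runs held a median of 37, 41.5 and 61.5 genes.

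One window with more genes stood apart on chromosome 13, from 110 to 120 Mb (35 genes). It was lower in CP2 than in CP1 (log2 ratio -0.63, SE 0.040, limma adjusted p = 1.04e-06), with 20 genes called lower and 5 higher (23.8% and 23% of all autosomal genes). Il6st, the shared receptor subunit of the interleukin 6 family and its most highly expressed gene, had 292, 214 and 162 CPM in P1, 271, 256 and 285 in CP1 and 172, 159, 173 and 157 in CP2 (log2 fold change of CP2 against CP1 -0.71, edgeR adjusted p = 0.00605). The next, Hmgcs1, an enzyme of cholesterol synthesis, stood at 119 ± 11.6, 238 ± 108 and 181 ± 35.4 CPM and was not called (edgeR adjusted p = 0.266). Plk2, a kinase, stood at 110 ± 2.5, 119 ± 26.4 and 47 ± 8.27 CPM.

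Outside chromosomes 6, 8, 15, 18 and 19 the chromosome ratios were small, from -0.13 to 0.11 in CP1 against P1, from -0.18 to 0.13 in CP2 against P1 and from -0.18 to 0.14 in CP2 against CP1. At adjusted p below 0.05 alone 7, 15 and 17 of the 19 autosomes passed, but with the size of 0.3 only 1, 2 and 3 did: chromosome 15, chromosomes 18 and 19, and chromosomes 8, 15 and 18. Chromosome 7 was lower in both CP lines than in P1 (-0.13 and -0.18) and so was chromosome 17 (-0.13 and -0.16), against the same P1 tumours. On chromosome 7 the P1 level was 0.07, 0.10 and 0.19 in replicates 1, 2 and 3, and on chromosome 17 it was 0.05, 0.12 and 0.14; the lowest in both was replicate 1, with the most seminal vesicle transcripts, whose part was not tested. With raw library sizes chromosome 17 stood at -0.05 and 0.01 and chromosome 7 at -0.04 and -0.01, but relative to the median of all autosomal genes they stood at -0.12 and -0.16 and at -0.11 and -0.18 under both scalings.

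The genes of a list of prostate cancer and Wnt genes that lie outside the runs moved by far more than their windows, in several cases against them. Cdkn2a, which encodes cell cycle inhibitors, had means of 24.5 CPM (P1), 0.678 (CP1) and 0.493 (CP2), while its chromosome 4 window stood at 0.33 and 0.51 against P1. Mycn had 41.9, 0.175 and 1.98 CPM in a window at 0.17 and 0.09, and Prom1, a surface marker of progenitor and luminal cells, 1740, 4.15 and 4.85 CPM in a window at -0.12 and 0.02. Wnt5a, a Wnt ligand, had 22.7, 1160 and 581 CPM in a window at 0.12 and 0.18. Foxa1, a pioneer factor of prostate epithelium, was at 51.1, 110 and 32.7 CPM in a window at 0.03 and 0.13, and E2f1, a cell cycle factor, at 19.5, 49.7 and 63.4 CPM in a window at 0.09 in both. Ctnnb1 itself, on chromosome 9, was at 1900, 1070 and 1000 CPM, and its window at -0.18 and -0.38. All 7 genes were called in both lines against P1 (edgeR adjusted p from 4.22e-07 to 0.0102). Of all autosomal genes 23.9% were called higher and 24.3% lower in CP1, and 29.7% and 30.4% in CP2. The list was chosen with earlier results of these data known.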

How the data were processed

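RNA from 10 orthograft tumours was sequenced, with 3 tumours of P1, 3 of CP1 and 4 of CP2. The deposited files hold raw gene counts, 1 file per tumour. Per the submitters' processing notes, the build was GRCm38.p3, and HTSeq (0.6.0), TopHat2 (2.1.0) with Bowtie2 (2.2.6.0), and FastQC (0.11.4) are named beside DESeq2 (1.14.1) under R (3.2.3). The use of strand in counting is not stated there, and reads of overlapping and antisense genes cannot be told apart. Part of the genotypes and some genes that the rule below names are not reported here.

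Totals were 18800912 to 37180721 counts, and 3 counts correspond to 0.0807 to 0.16 CPM. Of 47069 gene identifiers 46574 matched GENCODE M21 (GRCm38), which gave chromosome and gene start. Counts were scaled by TMM in edgeR 4.0.16 (R 4.3.3), and log2 CPM was taken with a prior count of 2. Windows and chromosomes were tested with limma 3.58.1 on the median level per tumour, over all 10 tumours with 1 mean per line, and genes with edgeR's quasi-likelihood test, each adjusted by Benjamini-Hochberg over all features. Both steps were tested on simulated data. A segment is 3 or more adjacent kept windows shifted in 1 direction on a chromosome that is not shifted as a whole.

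In each region the text names the 2 most highly expressed genes of the broad complexes, the largest rise and fall among called genes (mean over tumours of 5 CPM or more, lines without overlap), and the genes of a fixed list that lie in it. Windows are named that lie in a region, are among the 5 highest or lowest of a comparison, or border a change of direction. Genes of single windows were chosen after their values were seen. The members and lists were chosen with earlier results of these data known. Alternatives were DESeq2 1.42.0 size factors and test, other scalings, filters, window sizes and thresholds, and each tumour left out.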

Additional observations from a re-analysis of the deposited data

Results flagged for a closer look

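Of 92 sets of 4 CP2 values given in the text or behind it, 3 had an end value far from the other tumours, where chance gives about 1 in 20. Ndufa4 on chromosome 6 had 130 CPM in CP2 replicate 4 and 117 to 118 CPM in the others. Cdh15 on chromosome 8 had 18.9 CPM in CP2 replicate 1 and 44.9 to 47.6 CPM in the others. Ankrd29 on chromosome 18 had 112 CPM in CP2 replicate 1 and 63 to 70.7 CPM in the others.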

How the results depend on the processing

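Chromosome 15 (CP1 against P1, CP2 against CP1) and chromosomes 18, 8, 6 and 19 in CP2 kept their direction in 232 of 234 recomputed values. A chosen set of 21 window ratios on chromosomes 1, 4, 8, 12, 13 and 15 did so in 489 of 490. Other named windows, such as those on chromosomes 5, 6, 11, 14, 18 and 19, were not in this count. The exceptions came from the broadly expressed complexes alone, where CP2 against P1 was below 0 on chromosome 6 (-0.084) and chromosome 18 (-0.13), and from no filter on low counts, where chromosome 8 from 50 to 60 Mb was 0.0035 in CP1 against P1. Over all autosomes the genes of these complexes had a median of -0.25 in CP2 against P1. Pdhb (CP1 against P1, -0.29) and Ndufa13 (CP2 against P1, -0.37), not called with all tumours, changed sign without P1 replicates 1 and 2 and then passed the test (edgeR adjusted p = 0.025 and 0.0166). Another 2 window values and 10 chromosome values no longer passed the test.

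Counts of shifted windows are given as higher and lower for CP1 against P1, CP2 against P1 and CP2 against CP1, in that order, and were 26 and 6, 48 and 19, and 38 and 14. With no filter on low counts they were 4 and 1, 6 and 5, and 4 and 7. That setting keeps every gene with any count in any tumour. Genes with very low counts then enter the medians, and the prior count draws their ratios towards no difference by construction. In windows of 5 Mb they were 50 and 40, 97 and 54, and 72 and 47, and in windows of 20 Mb 7 and 2, 19 and 6, and 18 and 7; the number of windows differs by construction. With the mean over genes the lower windows were 71, 77 and 39. With a size of at least 0.4 the higher windows were 14, 29 and 24, and the lower ones of CP2 against P1 were 6. With a size of at least 0.2 the lower windows were 24, 39 and 35. With windows starting at 5 Mb the lower windows were 13 in CP1 against P1 and 23 in CP2 against CP1. In CP2 against P1 raw library sizes gave 89 and 4, centring gave 11 lower, and leaving out genes past 2 on the log2 scale gave 7 lower. Without P1 replicates 1 and 2 the lower windows were 18 in CP1 against P1 and 29 in CP2 against P1, and without CP1 replicates 2 and 3 they were 13 in CP1 against P1. Leaving out 1 tumour gave 18 to 26 and 6 to 16, 34 to 51 and 13 to 22, and 35 to 42 and 13 to 15. How far the construction of a setting accounts for its change was not tested, and neither was any other cause.

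Chromosomes past the size threshold numbered 1, 2 and 3. They were 0, 0 and 1 with no filter on low counts, 0, 0 and 1 with a size of at least 0.4, 4 and 5 in the last 2 comparisons with a size of at least 0.2, and 5 in both of these with raw library sizes. The broadly expressed complexes gave 0 in CP1 against P1 and 7 in CP2 against P1, where the mean over genes gave 4. Those 7 were chromosomes 1, 4, 7, 9, 10, 13 and 17, all lower in CP2. Chromosomes 18 and 19 were not among them (-0.13 and 0.12). With all genes and without any 1 tumour the number in CP2 against P1 was 2 to 3.

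A replicate block on the 2 shared title numbers gave 2058 genes higher and 2176 lower in CP2 against P1. This comparison rested only on P1 replicates 1 and 3 and CP2 replicates 3 and 4. The fit without the block used all tumours and gave 4405 and 4500. The block and the smaller set of tumours came together, so the part of each in the lower counts was not tested. P1 and CP2 share only the title numbers 19 and 21, the deviations of those tumours from their line means correlated at -0.219 and -0.0735, and nothing in the labels says that a number marks a pairing. Without CP1 replicates 2 and 3 the genes of CP2 against CP1 were 2021 higher and 1798 lower, where all tumours gave 3406 and 3525. Depth was lowest in CP2, where 3 counts correspond to up to 0.16 CPM.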

Other observations

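The X chromosome is not among the autosomal windows. Over its 506 genes that passed the filter the median log2 ratio was 0.01 in CP1 against P1, 0.01 in CP2 against P1 and -0.11 in CP2 against CP1.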
